A study of Mus musculus with 6 samples.

Results

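Leukemia inhibitory factor (LIF) signaling was examined through 10 genes, chosen by symbol, among the 24393 features counted in each library. These are *Lif*, *Lifr*, *Il6st*, *Jak1*, *Jak2*, *Stat3*, *Socs3*, *Junb*, *Pim1* and *Gbx2*, and all 10 passed the filter on low counts that left 13846 genes for testing. RNA was sequenced from KH2 mouse embryonic stem cells (mESCs, labelled as strain C57/BL/6), with 3 libraries of genotype CONTROL and 3 of genotype HOXA13. The overexpressing clones carry human *HOXA13* with a FLAG tag at a locus that responds to doxycycline, whereas the labels state that no treatment was given. Whether the sequenced HOXA13 cultures received doxycycline is not stated in the sources used here. All 6 cultures were non-differentiated, grew in serum medium that contained LIF, and were kept on irradiated 3T3 fibroblasts, so that feeder RNA may have been sequenced too. The *Lif* transcript measured here is separate from the LIF protein supplied in the medium. Libraries held between 13494135 and 21766589 counts. Levels are CPM, a gene's counts scaled to a common library size with TMM factors. Differences are log2 fold changes of HOXA13 against control from the quasi-likelihood test of edgeR, and p-values were adjusted by the Benjamini-Hochberg method across every gene tested. The study describes the replicates as biological.

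LIF keeps mouse embryonic stem cells in self-renewal. It binds the LIF receptor (*Lifr*), which pairs with gp130 (*Il6st*), and the Janus kinases bound to both chains then phosphorylate the transcription factor Stat3. Stat3 enters the nucleus and switches on target genes, among them *Socs3*, whose product binds gp130 and shuts the receptor down. Transcript levels do not show how much of Stat3 is phosphorylated.

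The human Ensembl identifier ENSG00000106031 was listed with 6, 0 and 0 counts in control and with 4298, 4177 and 2881 counts (218 to 230 CPM) in HOXA13 cultures, and mouse *Hoxa13* had between 16 and 30 counts in every library. The files do not pair this identifier with a symbol. All 10 embryonic stem cell markers were detected in every library, with *Pou5f1* at 632.9 CPM or more, and 3 of them (*Nanog*, *Sox2* and *Esrrb*, by 0.54 to 0.78 on the log2 scale) were higher and 3 lower in HOXA13 cultures. The lower ones were *Fgf4* (log2 fold change -1.02), *Tdgf1* (-1.09) and *Lin28a* (-1.16). Across all genes tested, 14.4% were higher and 13.3% lower, shares to set beside each count of markers here. The calls of *Sox2*, *Esrrb* and *Fgf4* were lost without control replicate 3 or any single HOXA13 library, that of *Sox2* also with library size alone and that of *Esrrb* with DESeq2. The 20 fibroblast markers summed to 5587, 8322 and 8243 CPM in control replicates 1, 2 and 3 and to 7591, 8725 and 9196 CPM in HOXA13 replicates 1, 2 and 3, and none of the 20 passed the test. For 3 of them (*Col3a1*, *Lox* and *Col5a2*, with folds of 1.29 to 1.41) every HOXA13 library was above every control library, and for *Tnc* (0.83-fold) every one was below. These patterns were shown by 23.5% and 22.2% of all genes tested, which is more than among the 20 markers. Of 10 markers of primitive streak and primed epiblast, 7 of the 9 tested were lower in HOXA13 cultures and none was higher. Their sum was 1007, 400.6 and 820.8 CPM in control replicates 1, 2 and 3, and between 361.8 and 395.9 CPM in the HOXA13 libraries, a sum made up mostly of *Dnmt3b*. Of these markers 6 had every control library above every HOXA13 library, a pattern of 22.2% of all genes tested. *T*, a defining marker of this list, had 4056, 155 and 1687 counts in control and between 27 and 45 counts in HOXA13 cultures, and *Mesp1* was at 0 in control replicate 2 and in every HOXA13 library. Of 9 primitive endoderm markers tested, *Gata6* (log2 fold change 1.80) and *Sox7* (2.14, lost without any single HOXA13 library) were higher and *Pdgfra* (-0.80, lost without control replicate 3 or HOXA13 replicate 1 or 2) and *Lama1* (-2.22) lower, and *Sox17*, the marker not tested, had at most 5 counts in any library. In bulk RNA, fewer cells of a type and less RNA per cell cannot be told apart.

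Of the 10 LIF pathway genes, 3 were higher in HOXA13 cultures at an adjusted p under 0.05 and none was lower. The 3 were *Il6st*, *Jak1* and *Junb*, each raised by less than 1.5-fold. Over all genes tested, 27.7% passed, 14.4% as higher (1994 genes) and 13.3% as lower (1842 genes), a split that became 1576 higher and 2500 lower with library size alone. For 5 of the 10 genes (*Il6st*, *Jak1*, *Stat3*, *Socs3* and *Junb*) every HOXA13 library was above every control library, and for none was every HOXA13 library below, where 23.5% and 22.2% of all genes tested showed these patterns. The median log2 fold change of the 10 genes was 0.10, beside 3.7e-05 over all genes tested.

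**Figure D1:**
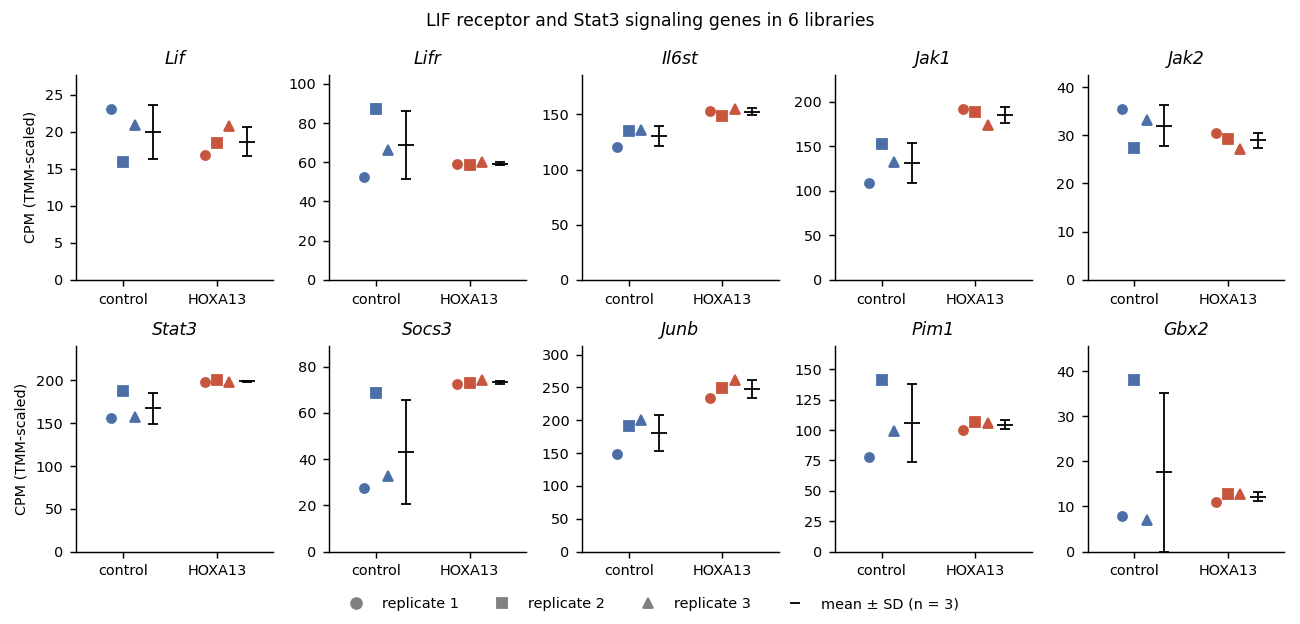
Level of each of the 10 LIF pathway genes in CPM (vertical axes, starting at 0) in 3 control libraries (blue) and 3 HOXA13 libraries (red), with marker shape giving the replicate and the black bar giving mean ± SD (n = 3). The groups do not overlap for *Il6st*, *Jak1*, *Stat3*, *Socs3* and *Junb*, and control replicate 2 stands apart from the other control libraries for *Socs3* and *Gbx2*.

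Values are given in the order of replicates 1, 2 and 3. *Lif*, the ligand of the pathway (chromosome 11 of mm9, 4157560 to 4172517), was at 23.1, 15.9 and 20.9 CPM in control and at 16.8, 18.4 and 20.7 CPM in the HOXA13 libraries. The groups overlapped, with control replicate 2 the lowest of all 6. Its log2 fold change was -0.11 with a 95% interval from -0.45 to 0.24 (adjusted p = 0.637), an interval that spans both directions.

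Of the receptor chains, *Il6st* passed the test and *Lifr* did not, and the difference between their fold changes was not tested. *Lifr*, the chain that binds LIF (chromosome 15, 7079559 to 7147489), was at 52.7, 87.3 and 66.3 CPM in control and at 59.0, 58.7 and 60.02 CPM in HOXA13 cultures. The HOXA13 values lay inside the range of the control values. The log2 fold change was -0.21 with an interval from -0.58 to 0.16 (adjusted p = 0.368). Without control replicate 1 it became a call, at -0.37 (adjusted p = 0.0252), and without control replicate 2 it was -0.0137 (adjusted p = 0.932). *Il6st*, which encodes gp130, the chain shared by all cytokines of the interleukin 6 family (chromosome 13, 113265216 to 113297068), was at 119.99, 135.3 and 136 CPM in control and at 153.5, 148.7 and 155.1 CPM in HOXA13 cultures. Every HOXA13 library was above every control library. The rise was small, at 0.23 ± 0.07 (SE) on the log2 scale (adjusted p = 0.0431), and it was past the threshold in 8 of 15 alternative fits, with adjusted p between 0.0308 and 0.14. It was lost with library size alone, with the replicate block, and without control replicate 1, control replicate 3 or any single HOXA13 library. Within a library, where scaling plays no part, there were 0.439, 0.645 and 0.488 *Lifr* counts per *Il6st* count in control and 0.384, 0.395 and 0.387 in HOXA13 cultures. Each HOXA13 ratio was below each control ratio, and how many other gene pairs show this was not counted. *Il6st* alone already separated the groups.

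Of the 2 Janus kinases, *Jak1* rose. *Jak1*, the kinase that gp130 signaling chiefly relies on (chromosome 4, 100824972 to 100937887), was at 108.4, 153 and 132.8 CPM in control and at 192.4, 188.7 and 174.6 CPM in HOXA13 cultures. The HOXA13 libraries were all above the highest control library, replicate 2. The log2 fold change was 0.50 ± 0.12 (SE, adjusted p = 0.0163), a 1.41-fold rise. It remained past the threshold in 12 of 15 alternative fits and was lost without control replicate 3 (adjusted p = 0.0554), HOXA13 replicate 1 (adjusted p = 0.0785) or HOXA13 replicate 2 (adjusted p = 0.0681). *Jak2*, which also binds these receptors (chromosome 19, 29326318 to 29387570), was at 35.5, 27.3 and 33.1 CPM in control and at 30.4, 29.2 and 27.2 CPM in HOXA13 cultures. The groups overlapped, and the log2 fold change was -0.15 with an interval from -0.40 to 0.11 (adjusted p = 0.367). There were 0.328, 0.179 and 0.249 *Jak2* counts per *Jak1* count in control and 0.158, 0.155 and 0.156 in HOXA13 cultures, again with no overlap. *Jak1* alone already separated the groups, and the share of other gene pairs was not counted.

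*Stat3* (chromosome 11, 100746412 to 100800854) was at 156, 188.1 and 157.6 CPM in control and at 198.6, 200 and 197.8 CPM in HOXA13 cultures. Every HOXA13 library was above every control library, and the HOXA13 libraries differed among themselves by 1.01-fold at most. Counting error alone would give a larger spread at these counts, so this closeness does not measure how alike the cultures were. The log2 fold change was 0.25 with an interval from 0.06 to 0.44, and it fell just short of the threshold (adjusted p = 0.0527). It passed in 3 of 15 alternative fits, which were limma-voom, no filter on low counts, and the fit without control replicate 2, where the log2 fold change was 0.33 (adjusted p = 0.00288). *Stat3* shares 72 exon bases with *Stat5a* on the opposite strand, and *Stat5a* had between 101 and 163 counts against at least 2616 for *Stat3*.

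*Socs3*, the feedback inhibitor of gp130 (chromosome 11, 117827393 to 117831361), had the largest fitted increase of the 10 genes and was not called. It was at 27.6, 68.8 and 32.6 CPM in control and at 72.6, 73 and 74.1 CPM in HOXA13 cultures. Control replicates 1 and 3 were less than 0.5 of any HOXA13 library, whereas control replicate 2 was just below them. The log2 fold change was 0.78 with an interval from 0.10 to 1.46 (standard error 0.30, adjusted p = 0.0862). Without control replicate 2 it was 1.27 (adjusted p = 1.5e-05), and over the 15 alternative fits the adjusted p ran from that value to 0.245. There were 0.177, 0.366 and 0.207 *Socs3* counts per *Stat3* count in control and 0.365, 0.365 and 0.375 in HOXA13 cultures, where control replicate 2 fell within the HOXA13 range.

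The sequence before the start of *Socs3* is shown because this gene is the classical direct readout of Stat3 and the only one of the 10 whose promoter window held the motif searched. RefSeq windows (build GRCm38.p6) of 300 bases, from 250 before to 50 after each gene's start, were found for all 10 genes and searched on both strands for TTCNNNGAA, the core that STAT dimers recognize, which reads the same on either strand. It was present in 8.3% of all 32851 windows. The 250 bases before the start of *Socs3*, on the minus strand at chr11:117969367-117969616, held 1 match, given in capitals, at 154 bases before the start. Its presence describes these letters only and shows no binding.
Socs3 upstream: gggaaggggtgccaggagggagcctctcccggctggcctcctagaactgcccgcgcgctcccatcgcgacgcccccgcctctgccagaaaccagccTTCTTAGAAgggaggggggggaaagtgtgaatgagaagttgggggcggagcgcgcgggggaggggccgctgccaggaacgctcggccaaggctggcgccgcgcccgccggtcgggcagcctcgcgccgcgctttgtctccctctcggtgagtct

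The remaining targets split. *Junb*, an immediate early gene of the AP-1 family that LIF induces within a short time (chromosome 8, 87500811 to 87502617), was at 148.9, 191.4 and 200.5 CPM in control and at 233.5, 248.5 and 260.5 CPM in HOXA13 cultures. The HOXA13 libraries were all above the controls. The log2 fold change was 0.46 ± 0.11 (SE, adjusted p = 0.0178), which passed in 12 of 15 alternative fits and was lost without any single HOXA13 library (adjusted p up to 0.0754). *Pim1*, a serine/threonine kinase that supports survival and self-renewal (chromosome 17, 29627757 to 29632390), was at 77.6, 140.8 and 99.1 CPM in control and at 100.1, 106.8 and 106 CPM in HOXA13 cultures. The HOXA13 values again lay inside the control range. The log2 fold change was -0.02 with an interval from -0.44 to 0.41 (adjusted p = 0.954), and its sign changed among the alternatives without passing in any. *Pim1* shares 468 exon bases with a noncoding gene on the opposite strand, *Gm16912*.

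*Gbx2*, a homeobox gene that can sustain self-renewal downstream of Stat3 (chromosome 1, 91824537 to 91829865), was at 7.80, 37.9 and 7.07 CPM in control and at 11.0, 12.7 and 12.8 CPM in HOXA13 cultures. Control replicate 2 held 5.36 times the level of the lowest control library, and the other two controls were below all HOXA13 libraries. With all 6 libraries the log2 fold change was -0.51 with an interval from -1.86 to 0.85 (adjusted p = 0.567). Without control replicate 2 it was 0.69 in the opposite direction (adjusted p = 0.00504). The gene lies on chromosome 1, where the median log2 fold change of the 771 genes tested was 0.37 and 55.9% passed. It also shares 1372 exon bases with *D130058E05Rik* on the opposite strand, and whether strand was used in counting is not given in the sources used here.

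**Figure D2:**
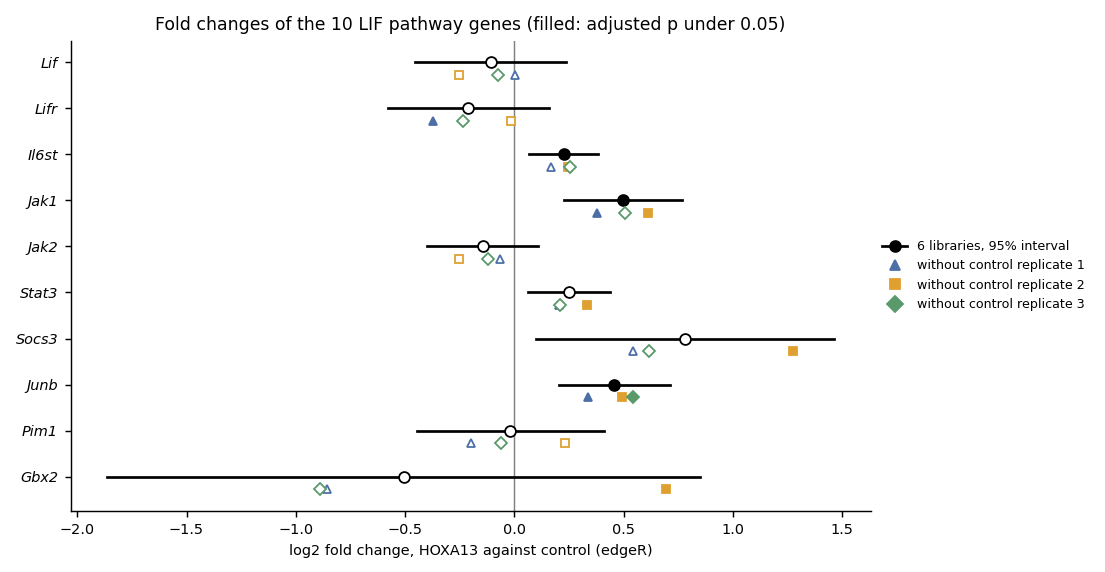
Log2 fold change of HOXA13 against control for the 10 genes (circles, horizontal axis) with its 95% interval (line), and the value after leaving out control replicate 1 (triangle), 2 (square) or 3 (diamond). Filled symbols have an adjusted p under 0.05, and leaving out control replicate 2 moved *Socs3* from 0.78 to 1.27 and *Gbx2* from -0.51 to 0.69.

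The control cultures varied more among themselves than the HOXA13 cultures did. The standard deviation of log2 CPM was larger in control than in HOXA13 cultures for 10 of 10 genes, and for 71.5% of all genes tested. The coefficient of variation in control reached 100% for *Gbx2*, 52.3% for *Socs3*, 30.3% for *Pim1* and 25.4% for *Lifr*, and was 8.09%, 1.08%, 3.53% and 1.15% for these genes in HOXA13 cultures. The HOXA13 values of *Socs3* and *Lifr* lie below what counting error alone would give, so they do not measure how alike the cultures were. Control replicate 2 was the highest control library for 6 genes (*Lifr*, *Jak1*, *Stat3*, *Socs3*, *Pim1* and *Gbx2*) and the lowest for 2 (*Lif* and *Jak2*), where 36.0% and 35.6% of all genes tested showed these positions. Control replicate 1 was the lowest control library for 7 genes and the highest for *Lif* and *Jak2*, positions that 38.1% and 39.4% of all genes tested showed. Control replicate 1 also had the lowest sum of fibroblast markers and the highest sum of primitive streak and primed epiblast markers, and control replicate 2 the lowest sum of the latter among the controls. The part of either in the levels of these genes was not tested.

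**Figure D3:**
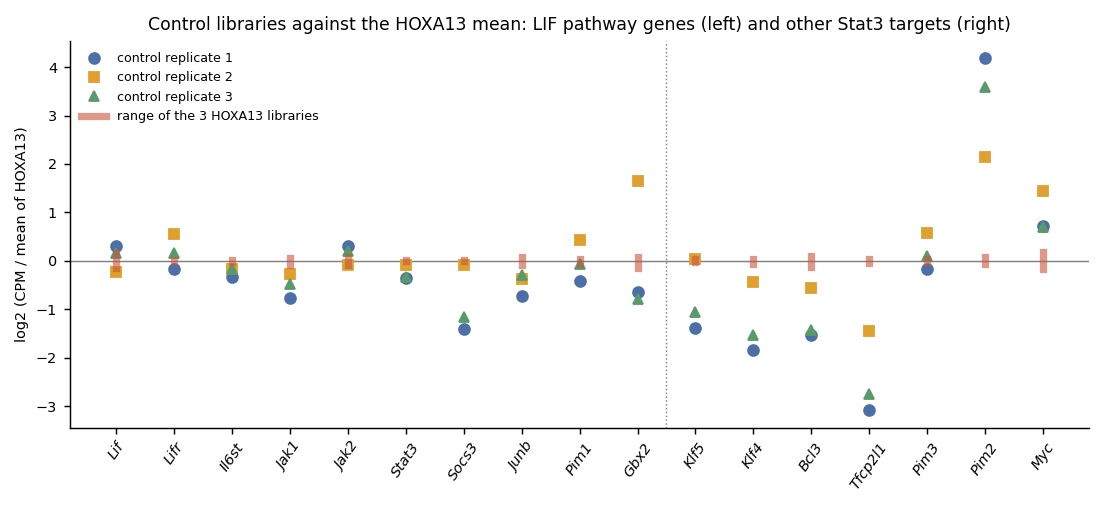
Level of each control library relative to the mean of the HOXA13 libraries, on a log2 scale (vertical axis). The 10 genes are left of the dotted line and 7 of the 15 other Stat3 targets, picked by no stated rule, are right of it. The red bar gives the range of the 3 HOXA13 libraries. Of the targets left out, control replicate 2 was the highest control for *Fos*, *Mcl1* and *Cebpb*. It lay between the other controls for *Zfp36*, *Ier3*, *Cebpd*, *Bcl6* and *Sall4*. Control replicate 2 (squares) falls in the HOXA13 range for *Jak2* and *Klf5*, lies just below it for *Lif*, *Stat3* and *Socs3*, and is above it for *Lifr*, *Pim1*, *Gbx2*, *Pim3*, *Pim2* and *Myc*.

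Levels of different genes were compared per kilobase of exon, with all annotated exons of a gene merged. This length can exceed that of the transcript present (*Stat3* 9527 and *Socs3* 2891 bases), and ranks between genes depend on it. The shares of Janus and Pim kinases given below rest on the same lengths. In both groups *Junb* was highest, at 99.8 CPM per kilobase in control and 137 in HOXA13 cultures, followed by *Pim1* (53.7 and 52.9) and *Il6st* (25.1 and 29.3), with no overlap between these neighbours in either group. *Jak1*, *Stat3* and *Socs3* came next. Their control ranges overlapped in this order, whereas in HOXA13 cultures *Socs3* (25.3) stood above *Stat3* (20.9) with no overlap by these lengths. Without division by length *Stat3* was the higher of the pair there (mean 198.8 against 73.2 CPM), and other lengths were not tested. *Lifr* and *Jak2* followed and overlapped in both groups, at 5.74 and 5.75 in HOXA13 cultures. *Lif* (4.59 and 4.29) and *Gbx2* (4.15 and 2.87) had the lowest means, and overlapped with each other in control only. The control range of *Gbx2* also overlapped those of *Lifr* and *Jak2*, since control replicate 2 held 8.94 CPM per kilobase, so its place in the control order rests on the mean.

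Genes with the most similar profiles over the 6 libraries were found by the mean absolute difference of centred log2 CPM, among 10718 other genes with a mean of at least 5 CPM. The nearest to *Socs3* were *Jam2* (0.0412), *Klf5* (0.0517) and *Enox1* (0.075). *Klf5*, a Krüppel-like factor of the naive state, was at 58.3, 155.4 and 73.5 CPM in control and at 155.8, 150.8 and 149.5 CPM in HOXA13 cultures, thus with the same high control replicate 2. *Pim3*, *Arl4a* and *Sgk1* were nearest to *Lifr* (0.0231, 0.0296 and 0.0359), and *Ankrd13a*, *Lrrc8d* and *Sdhc* to *Stat3* (0.0173, 0.0184 and 0.0212). With 6 libraries these lists describe likeness only.

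Around the 10 genes, 66 other genes of the pathway were listed, of which 60 could be tested. Of these, 10 were higher and 10 lower, or 33.3%, with a median log2 fold change of 0.06. Among all genes tested 27.7% passed, 14.4% as higher and 13.3% as lower. The counts of each list below are to be read beside these shares. The remaining 6, *Il27*, *Osm*, *Ctf2*, *Cntf*, *Il27ra* and *Ptprc*, had at most 22 counts in any library. Among the 5 other cytokines tested, *Il11* fell, from 2.59, 1.90 and 2.07 CPM in control to 1.27, 1.21 and 1.13 CPM in HOXA13 cultures (log2 fold change -0.86 ± 0.23, SE, edgeR adjusted p = 0.0279). This call was lost in 7 of 15 alternative fits, DESeq2 and the replicate block among them. Among the 4 other receptors tested, *Cntfr*, the alpha chain through which ciliary neurotrophic factor reaches gp130 and the LIF receptor, was at 17.6, 8.22 and 11.3 CPM in control and at 0.76, 1.93 and 1.59 CPM in HOXA13 cultures. It fell 8.82-fold (log2 fold change -3.14 ± 0.38, SE, adjusted p = 0.000879) and passed in all 15 alternative fits.

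Of the 8 other Janus kinases and STATs, 1 was higher and 2 were lower. *Jak3*, the kinase of receptors that use the common gamma chain, was at 30.4, 36.8 and 36.2 CPM in control and at 104.9, 128 and 113.2 CPM in HOXA13 cultures. The groups were far apart, at 1.75 ± 0.11 (SE) on the log2 scale (adjusted p = 3.03e-05), which held in all 15 alternative fits. *Jak3* shares 404 exon bases with *Insl3*, which had between 3 and 18 counts. Per kilobase of exon, *Jak3* made up 16.1% ± 1.05 (SD, n = 3) of the 4 Janus kinase transcripts in control and 34.5% ± 2.06 in HOXA13 cultures, while *Jak1* made up 45.4% ± 3.59 and 41.1% ± 2.30, *Jak2* 16.2% ± 3.64 and 9.23% ± 0.60, and *Tyk2* 22.3% ± 3.27 and 15.2% ± 0.90. *Stat4* and *Stat5b* fell, with log2 fold changes of -0.94 (adjusted p = 0.00476) and -0.59 (adjusted p = 0.00599), each in all 15 alternative fits. *Stat4* lies on chromosome 1. *Stat2*, *Stat5a*, *Stat6* and *Tyk2* were among those that did not pass.

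Of 14 inhibitors tested, 1 was higher and 2 were lower. *Ptpn2*, a nuclear phosphatase that acts on STAT and JAK proteins, was at 72.1, 69.5 and 72.7 CPM in control and at 108.1, 101.1 and 90.6 CPM in HOXA13 cultures, at 0.48 ± 0.08 (SE) on the log2 scale (adjusted p = 0.00336), which passed in all 15 alternative fits. *Ptpn1*, its close relative at the endoplasmic reticulum, fell by 0.34 on the log2 scale (adjusted p = 0.0165). *Socs1*, the paralogue of *Socs3* that inhibits Janus kinases directly, was at 7.58, 2.79 and 4.60 CPM in control and at 1.27, 2.04 and 2.12 CPM in HOXA13 cultures (log2 fold change -1.49, standard error 0.38, edgeR's adjusted p = 0.0225). That call was lost in 5 of 15 alternative fits, as was that of *Ptpn1* in 4. There were 0.275, 0.0405 and 0.141 *Socs1* counts per *Socs3* count in control, and between 0.0175 and 0.0286 in HOXA13 cultures.

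**Figure D4:**
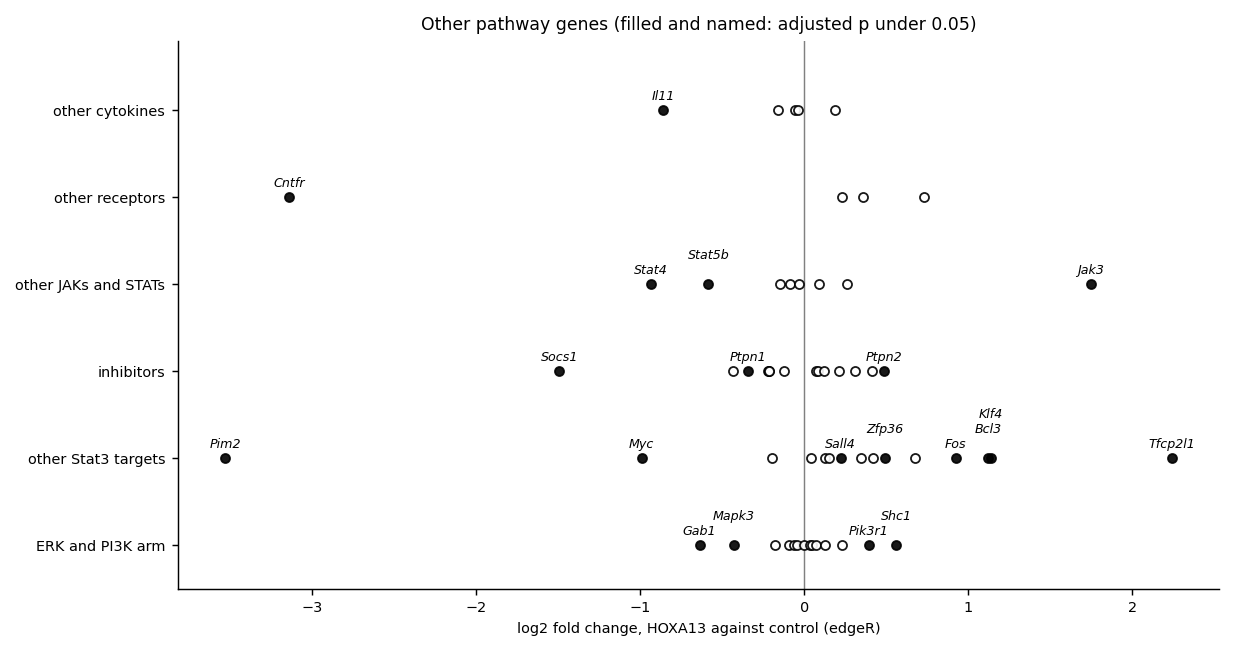
Log2 fold changes of HOXA13 against control (horizontal axis) for the 60 other pathway genes tested, in 6 lists, with genes at an adjusted p under 0.05 filled and named. *Pim2* and *Cntfr* lie furthest to the left, at -3.53 and -3.14, and *Tfcp2l1* and *Jak3* furthest to the right, at 2.24 and 1.75.

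Of 15 other genes known as LIF or Stat3 targets, 6 were higher, 2 were lower and 7 did not pass. The higher ones were the naive pluripotency factors *Tfcp2l1* (log2 fold change 2.24, adjusted p = 0.00401) and *Klf4* (1.14, adjusted p = 0.0297), the NF-kappaB cofactor *Bcl3* (1.12, adjusted p = 0.0105), the AP-1 gene *Fos* (0.92, adjusted p = 0.000533), the mRNA decay factor *Zfp36* (0.49, adjusted p = 0.0435) and *Sall4* (0.22, adjusted p = 0.0394). *Tfcp2l1* was at 191.9, 598.2 and 241.1 CPM in control and between 1565 and 1670.0 CPM in HOXA13 cultures, and *Klf4* was at 109.0, 289.5 and 135.8 CPM in control and between 370.6 and 400.9 CPM in HOXA13 cultures. Control replicate 2 was the highest control for both, and without it the log2 fold changes were 2.90 and 1.67. *Fos*, the dimer partner of *Junb*, was at 179.5, 194.3 and 147.4 CPM in control and at 327.4, 315.9 and 344.9 CPM in HOXA13 cultures, so that control replicate 2 did not stand near the HOXA13 level there. *Bcl3* was at 10.4, 20.5 and 11.2 CPM in control and at 27.5, 30.6 and 32.6 CPM in HOXA13 cultures. The calls of *Tfcp2l1*, *Bcl3* and *Fos* held in all 15 alternative fits, whereas *Klf4* was lost in 5. Those of *Zfp36* and *Sall4* were each lost in 6, library size alone (adjusted p = 0.0793 and 0.116) and the omission of any single HOXA13 library among them. *Zfp36* was also lost without control replicate 1 or 2, and *Sall4* without control replicate 3 or with the replicate block. *Tfcp2l1* lies on chromosome 1.

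The lower targets were *Myc* and *Pim2*. *Myc*, which LIF maintains in mESCs, fell, from 39.3, 64.7 and 38.9 CPM in control to 21.1, 23.7 and 27.0 CPM in HOXA13 cultures (log2 fold change -0.99, standard error 0.20, edgeR's adjusted p = 0.0091), a call lost without HOXA13 replicate 1 (adjusted p = 0.0608). *Pim2* was at 223.6, 54.7 and 148.9 CPM in control and at 13.0, 11.8 and 12.1 CPM in HOXA13 cultures. The control libraries spread widely, yet all were above every HOXA13 library, and the log2 fold change was -3.53 ± 0.46 (SE, adjusted p = 0.00124), which held in all 15 alternative fits. The Pim kinases therefore differed in make-up. Per kilobase of exon, *Pim2* was 54.0%, 14.1% and 38.5% of the 3 Pim kinase transcripts in control replicates 1, 2 and 3 and between 4.68% and 5.36% in HOXA13 cultures. *Pim3* had a log2 fold change of -0.20 with an interval from -0.58 to 0.18 (adjusted p = 0.418).

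**Figure D5:**
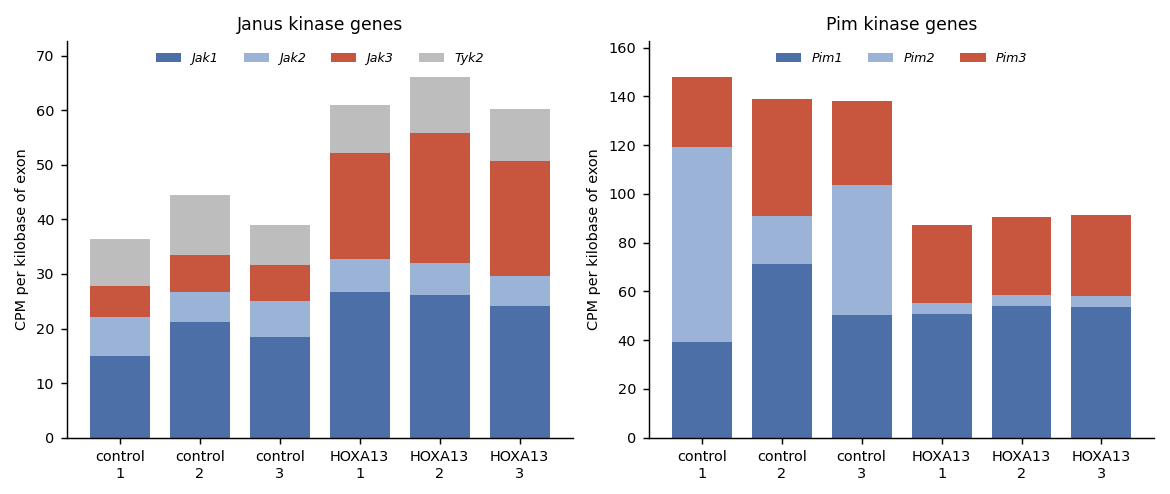
Levels per kilobase of exon (vertical axes, CPM per kilobase) of the Janus kinase genes (left) and the Pim kinase genes (right) in each library, stacked. *Jak3* makes up 32.2% to 36.1% of the left bars in HOXA13 libraries and at most 17.3% in control, and *Pim2* makes up at most 5.36% of the right bars in HOXA13 libraries.

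LIF receptors also signal through the ERK and PI3K pathways, and of 14 genes listed for these arms 2 were higher and 2 lower. The adaptor *Shc1* rose from 110.9 ± 6.43 to 163.6 ± 9.81 CPM (SD, n = 3, log2 fold change 0.56 ± 0.07, SE, edgeR adjusted p = 0.00125), and *Pik3r1*, a regulatory subunit of PI3K, had a log2 fold change of 0.39 (adjusted p = 0.0165), lost without HOXA13 replicate 1 (adjusted p = 0.0734) or 3 (adjusted p = 0.0684). The docking protein gene *Gab1*, which links gp130 to PI3K and ERK, was at 350.1, 550.1 and 416.7 CPM in control and at 300.8, 270.4 and 274.4 CPM in HOXA13 cultures (log2 fold change -0.64, standard error 0.15, edgeR's adjusted p = 0.0151), lost without any single HOXA13 library. *Mapk3*, which encodes ERK1, fell by 0.43 on the log2 scale (adjusted p = 0.00519). *Ptpn11*, the phosphatase SHP2 that binds the same gp130 tyrosine as Socs3, had a log2 fold change of -0.18 (adjusted p = 0.109).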

How the data were processed

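The 6 libraries were grouped by sample title, which also gives replicate numbers 1 to 3. The authors aligned reads of a stranded kit to mm9 by TopHat, obtained gene counts from HTSeq 0.6.1p1 and deposited these counts without normalization. The counting mode, strand setting and annotation are not given in the sources used here. The members and gene lists were chosen with earlier results of these data known. Counts were tested with edgeR 4.0.16 in R 4.3.3: filterByExpr (minimum count 10, minimum total 15), TMM factors, glmQLFit and glmQLFTest without covariates, at an adjusted p under 0.05. Each standard error (SE) was the absolute log2 fold change over the root of F, and intervals are 95%. CPM were computed here from the counts. The alternatives were RLE factors, library size alone, no filter, a minimum of 10 counts per library throughout, the replicate block, robust estimation, DESeq2 1.42.0, limma-voom (limma 3.58.1), each chromosome centred in each library, and each library left out, 15 in all. The code was first tested on simulated data. Positions and exon lengths are from GENCODE for NCBIM37 (mm9), where 22027 of 24393 features were placed. Exon length merges all annotated exons of a gene. The 3 counts taken as the smallest detectable level correspond to 0.134 to 0.227 CPM per library, a limit of counting error only. Replicate pairs differed by 12.7 to 34.2 in chi-square per degree of freedom in control and by 1.89 to 6.03 in HOXA13 cultures. All were above the sampling noise of repeated sequencing, and the lowest was that of HOXA13 replicates 2 and 3. Named genes are the 10 members, up to 6 genes past the threshold of each pathway list (*Zfp36*, *Sall4*, *Ptpn11*, the genes named as not passing or untested and the single markers were added after their values were seen), the 3 profiles nearest to *Lifr*, *Stat3* and *Socs3* (log2 of CPM plus 0.5), and the targeted gene.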

Additional observations from a re-analysis of the deposited data

How the results depend on the processing

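The calls on the 10 LIF pathway genes depended on single libraries. Leaving out 1 library at a time gave between 0 and 6 higher and between 0 and 1 lower genes, against 3 and 0 with all libraries. The 6 came without control replicate 2 and the 0 without HOXA13 replicate 1 or 2. For the 60 other pathway genes the same fits gave between 6 and 13 higher and between 5 and 11 lower, against 10 and 10, and over all genes between 1134 and 2428 higher and between 904 and 2579 lower, against 1994 and 1842. With limma-voom, 5 of the 10 genes were higher (*Stat3* and *Socs3* added). *Gbx2* reversed without control replicate 2, to 0.69, and was -0.89 without control replicate 3. The causes were not tested. The replicate block gave 3 higher and 0 lower of the 10 genes, with *Socs3* in (adjusted p = 0.0456, edgeR) and *Il6st* out (adjusted p = 0.0766), and 1696 higher and 1476 lower over all genes. Same-numbered libraries had correlations of deviations between -0.045 and 0.018, and 1 of 3 control libraries correlated best with its own number. These values gave no sign of pairing by number but cannot show that it is absent, and other pairing was not tested. Of 420 values under the alternatives, which cover the 10 genes and the other pathway genes named by the rule but not *Zfp36*, *Sall4*, *Ptpn11* or the markers, 365 kept their direction and side of the threshold, 40 lost a call and 7 gained one, 1 reversed, and 7 that were not called changed sign. *Gbx2*, the lowest of the 10 genes by mean CPM, had between 140 and 558 counts in each library.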
